A study of Mus musculus with 18 samples.

Results

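Kdr, Flt1, Flt4, Nrp1, Nrp2, Apln, Aplnr, Esm1, Pgf and Adm encode receptors and coreceptors of vascular endothelial growth factor (VEGF), 1 of its ligands, and genes known from the tip cells that lead a growing vessel. They were taken by name, 10 of the 21638 genes in the deposited table, and each symbol had 1 row. Their mRNA was measured in endothelial cells sorted from the cortex of adult mice by surface protein (CD31 present, CD41 and CD45 absent). Sham ipsilateral and sham contralateral libraries came from the side of the operation and the opposite side of mice without an occlusion, and MCAO ipsilateral and MCAO contralateral libraries from the same sides of mice whose middle cerebral artery had been occluded, a model of ischaemic stroke, with brains taken on day 7. These mice carried the genotype label WT. Libraries labelled Hdac2 ECKO or Ezh2 ECKO came from the ipsilateral side of occluded mice with floxed Hdac2 or Ezh2 alleles and Cdh5CreERT2, a recombinase that the Cdh5 promoter drives in endothelial cells and that tamoxifen switches on. All 6 groups carried a tamoxifen label of 75 mg per kg, and the design text gives 5 doses from day 0 to day 4 for the floxed mice. Each group had 3 libraries. The labels do not say whether WT mice carried the recombinase, whether cells of several mice were pooled, or which libraries share a mouse, so the p-values below measure the spread between libraries, which may be partly technical.

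Total counts ran from 25791401 to 57576255 per library, and levels are given as CPM, counts per 1000000 counts of a library's total after TMM scaling. A floor of 3 counts corresponded to 0.0521 to 0.116 CPM of the unscaled total. The genes targeted for deletion were checked first. Hdac2 stood at 57.5, 85.0 and 87.9 CPM where the label was Hdac2 ECKO and at 84.4, 68.2 and 96.1 CPM in MCAO ipsilateral, and Ezh2 at 12.0, 19.7 and 8.41 CPM where it was Ezh2 ECKO and at 4.44, 7.02 and 7.84 CPM in MCAO ipsilateral. Neither deletion was visible as a lower gene total, and the table holds 1 value per gene, so the exons meant to be removed were not seen separately. Both groups are therefore named by their labels. Counts on 1464 olfactory and vomeronasal receptor genes, a gauge of diffuse background, lay between 152 and 714 CPM in 16 libraries and at 1883 CPM in MCAO contralateral replicate 1 and 2077 CPM in Ezh2 ECKO replicate 2. All 12 endothelial markers listed reached 1 CPM, while Prox1, Lyve1 and Pdpn, markers of lymphatic vessels, summed to 2.73 CPM at most. The 7 red cell genes summed to between 38255 and 65429 CPM in MCAO ipsilateral, to between 49318 and 297802 CPM in Hdac2 ECKO and to between 71.0 and 671 CPM in Ezh2 ECKO.

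VEGF ligands act through receptor tyrosine kinases on endothelial cells. Kdr (VEGFR2) passes on most of the growth and permeability signal, Flt1 (VEGFR1) binds VEGF-A tightly but signals weakly and so limits what reaches Kdr, and Flt4 (VEGFR3) answers to VEGF-C and VEGF-D. Nrp1 and Nrp2 are neuropilins, coreceptors for VEGF and for semaphorins. In a sprouting vessel the leading tip cell is rich in Kdr, Nrp1, Esm1 and Apln, and in the brain hypoxia is a classical trigger of such sprouting.

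Upstream sequences of Kdr, Flt1 and Adm are given because these genes took different courses over the 6 groups, as described below. Each run is the 250 bases before the RefSeq transcript start, on the gene's own strand, from build GRCm38.p6. The 5 bases GGAAG (or CTTCC, the same site on the other strand) are in capitals. They extend GGAA, the core recognised by ETS factors such as Erg and Ets1, and GGAA followed by another base was not marked or counted.
Kdr, chr5:75978456-75978705, minus strand: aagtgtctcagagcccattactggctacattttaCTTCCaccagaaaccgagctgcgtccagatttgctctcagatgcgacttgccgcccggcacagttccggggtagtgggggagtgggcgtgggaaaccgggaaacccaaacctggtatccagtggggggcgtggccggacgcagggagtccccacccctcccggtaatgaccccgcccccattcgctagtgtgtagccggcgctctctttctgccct
Flt1, chr5:147726012-147726261, minus strand: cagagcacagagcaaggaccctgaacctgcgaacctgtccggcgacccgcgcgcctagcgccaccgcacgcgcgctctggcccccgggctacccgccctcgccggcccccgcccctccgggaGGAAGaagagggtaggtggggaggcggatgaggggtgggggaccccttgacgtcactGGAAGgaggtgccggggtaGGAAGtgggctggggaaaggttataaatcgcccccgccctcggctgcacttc
Adm, chr7:110627407-110627656, plus strand: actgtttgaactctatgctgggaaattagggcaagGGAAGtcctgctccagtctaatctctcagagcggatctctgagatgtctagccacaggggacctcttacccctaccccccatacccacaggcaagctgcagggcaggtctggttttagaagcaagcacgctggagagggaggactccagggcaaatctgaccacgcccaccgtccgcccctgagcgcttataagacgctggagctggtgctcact
The window of Kdr held 1 match, that of Flt1 held 3 and that of Adm held 1. The RefSeq table matched 9 of the 10 genes by symbol, and 6 of those 9 had a match to GGAAG, while 64.1% of all 32536 windows of this length had one. ACGTG (or CACGT), a form of the core of the hypoxia response element, was in a window of 0 of the 9 genes and in 16.7% of all windows. The other form, GCGTG (or CACGC), was not counted, and the printed windows of Kdr, Flt1 and Adm contain it. These matches describe letters in a short window and not the binding of any factor.

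Levels were compared between genes as CPM per kilobase of annotated exon (GENCODE M21, GRCm38), averaged over the 18 libraries. Flt1 (chromosome 5, 147561604 to 147726011, minus strand) was the highest at 162 CPM per kilobase and lay above Kdr in 18 of 18 libraries. Kdr (chromosome 5, 75932827 to 75978458, minus strand) followed at 37.5, Adm (chromosome 7, 110627661 to 110629820, plus strand) at 24.6 and Nrp1 (chromosome 8, 128358604 to 128503363, plus strand) at 11.0 CPM per kilobase. Kdr was above Adm in 13 libraries and Adm above Nrp1 in 14, so neighbours in the middle of this order changed places. Flt4 had 3.35 and Nrp2 1.74 CPM per kilobase. Esm1 averaged 2.55 but was above Nrp2 in only 7 libraries. Apln (1.55), Aplnr (0.753) and Pgf (0.322 CPM per kilobase) closed the order. Over the 18 libraries the coefficient of variation was lowest for Flt1, at 14.8%, and highest for Apln, at 205%. The gene spans of Esm1 and Gzmk, of Adm and Gm28863 and of Nrp2 and Gm29083 overlap on opposite strands, so counting without strand could affect these genes. Those of Nrp1 and Mir1903 and of Nrp2 and Gm37121 overlap on the same strand. Overlap of the exons in all these pairs was not checked, and the strand setting is not given in the sources used here.

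**Figure D1:**
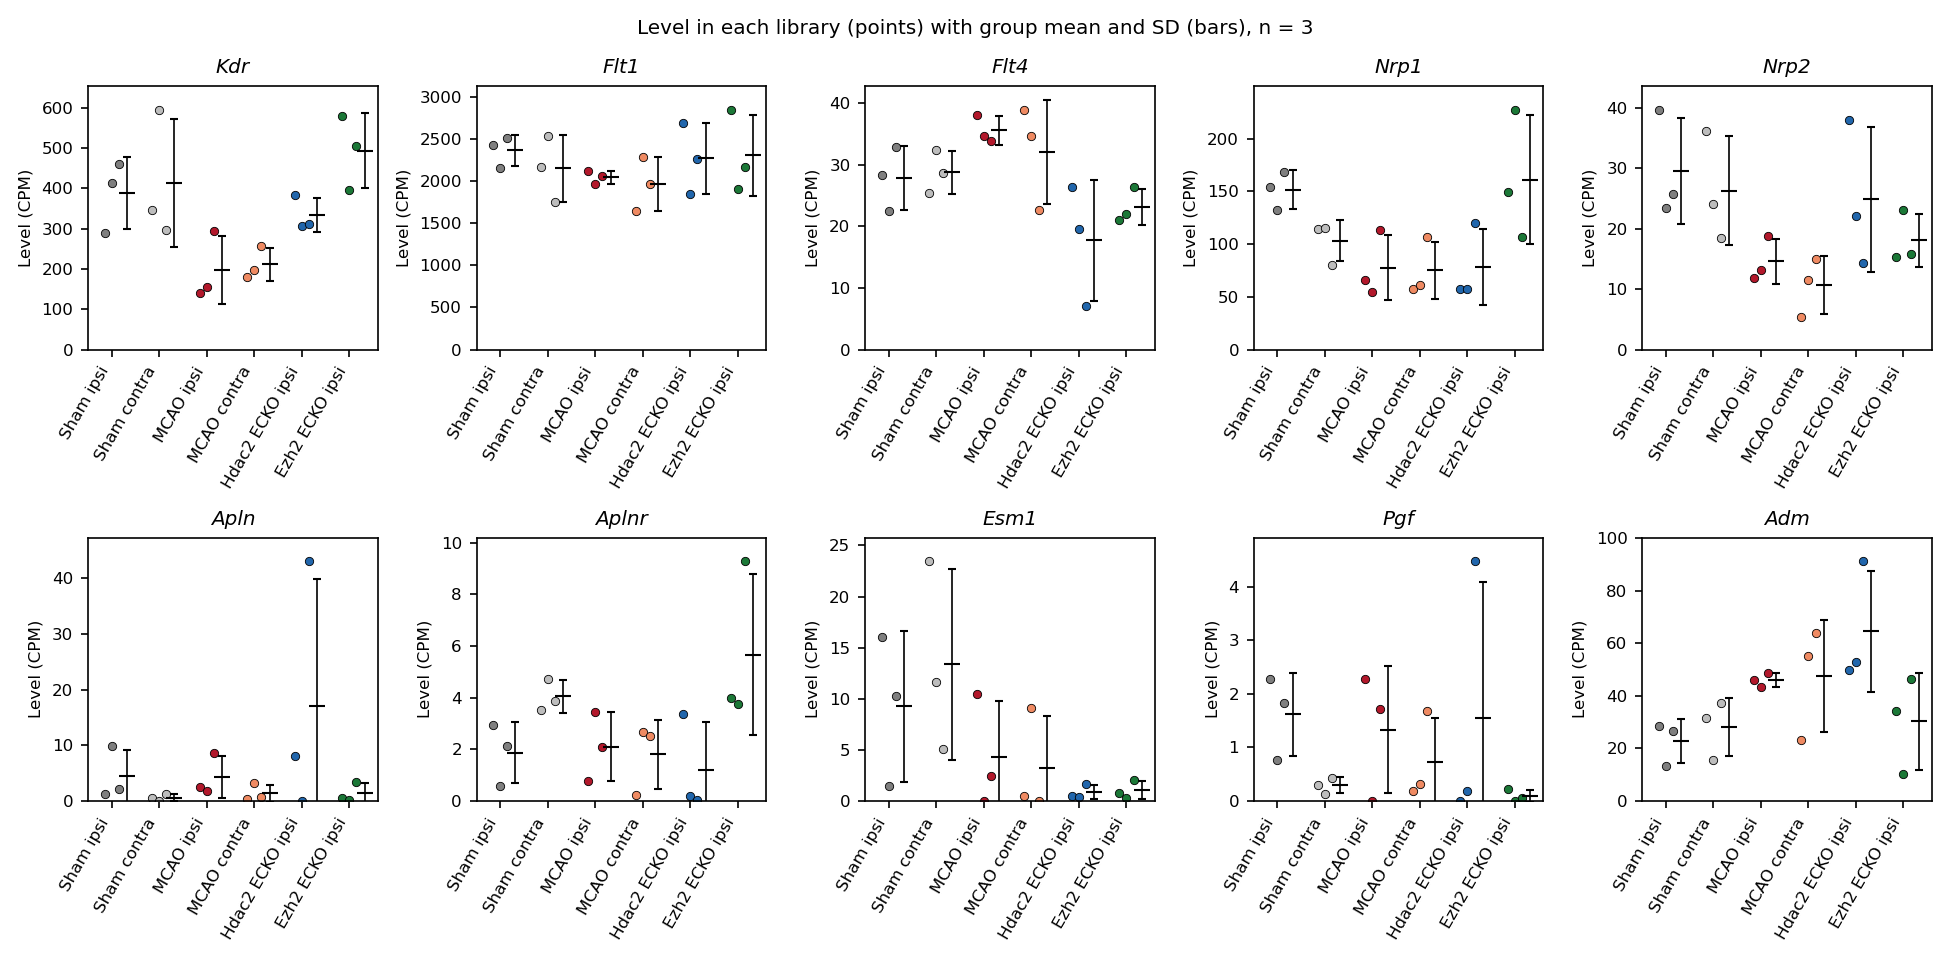
Level in CPM (vertical axis, linear, from 0) of each of the 10 genes in every library (points) of the 6 groups (horizontal axis), with the group mean and SD as bars, cut at 0 where they would go below. The group mean of Kdr is lowest in both MCAO groups and highest in Ezh2 ECKO, Flt1 is nearly level, and Apln, Aplnr, Esm1 and Pgf scatter within groups.

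Of the 10 genes, all of which passed the filter on low counts, 0 were called in any of the 11 comparisons by edgeR's quasi-likelihood test at an adjusted p-value under 0.05. Over all 17094 genes tested the share called was 0% for MCAO against sham ipsilateral, contralateral, the side differences and their interaction, 0.152% for MCAO against sham over both sides, 0.0117% for Hdac2 ECKO and 1.46% for Ezh2 ECKO against MCAO ipsilateral, 0.123% for Hdac2 ECKO against Ezh2 ECKO, and 0% and 0.041% for Hdac2 ECKO and Ezh2 ECKO against sham ipsilateral. For these genes the values below are therefore levels and log2 changes with their errors, none of them called by that test. DESeq2 called 2 of the 10 genes over both sides (Kdr and Nrp2) and 2 in Ezh2 ECKO against MCAO ipsilateral (Kdr and Nrp1), where it called 1.97% and 9.61% of all genes. Limma voom called 2 in MCAO against sham ipsilateral (Kdr and Nrp1, against 7.45% of all genes), 4 over both sides (Kdr, Nrp1, Nrp2 and Adm, against 12.9%), 1 in Ezh2 ECKO against MCAO ipsilateral (Kdr, against 2.21%) and 1 in Hdac2 ECKO against sham (Nrp1, against 1.56%). Elsewhere both tools called 0 of the 10. Of all genes DESeq2 called 0.404% in MCAO against sham ipsilateral, 0.152% contralateral, 0.0351% in each side comparison and the interaction, 1.43% in Hdac2 ECKO against MCAO ipsilateral, 1.44% and 1.11% in Hdac2 ECKO and Ezh2 ECKO against sham and 3.86% between the ECKO labels. Limma voom called 0.041% contralateral, 0% between the MCAO sides, 0.00585% between the sham sides and in the interaction, 0.187% in Hdac2 ECKO against MCAO ipsilateral, 0.0644% in Ezh2 ECKO against sham and 0.0234% between the ECKO labels. All fold changes are relative to TMM scaling, under which all genes had a median log2 change of −0.09 in MCAO against sham ipsilateral, and 0.11 and 0.17 for Hdac2 ECKO and Ezh2 ECKO against MCAO ipsilateral. With RLE factors the last of these was 0.36. In such sorted bulk samples, fewer cells of a kind and less RNA per cell cannot be told apart.

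**Figure D2:**
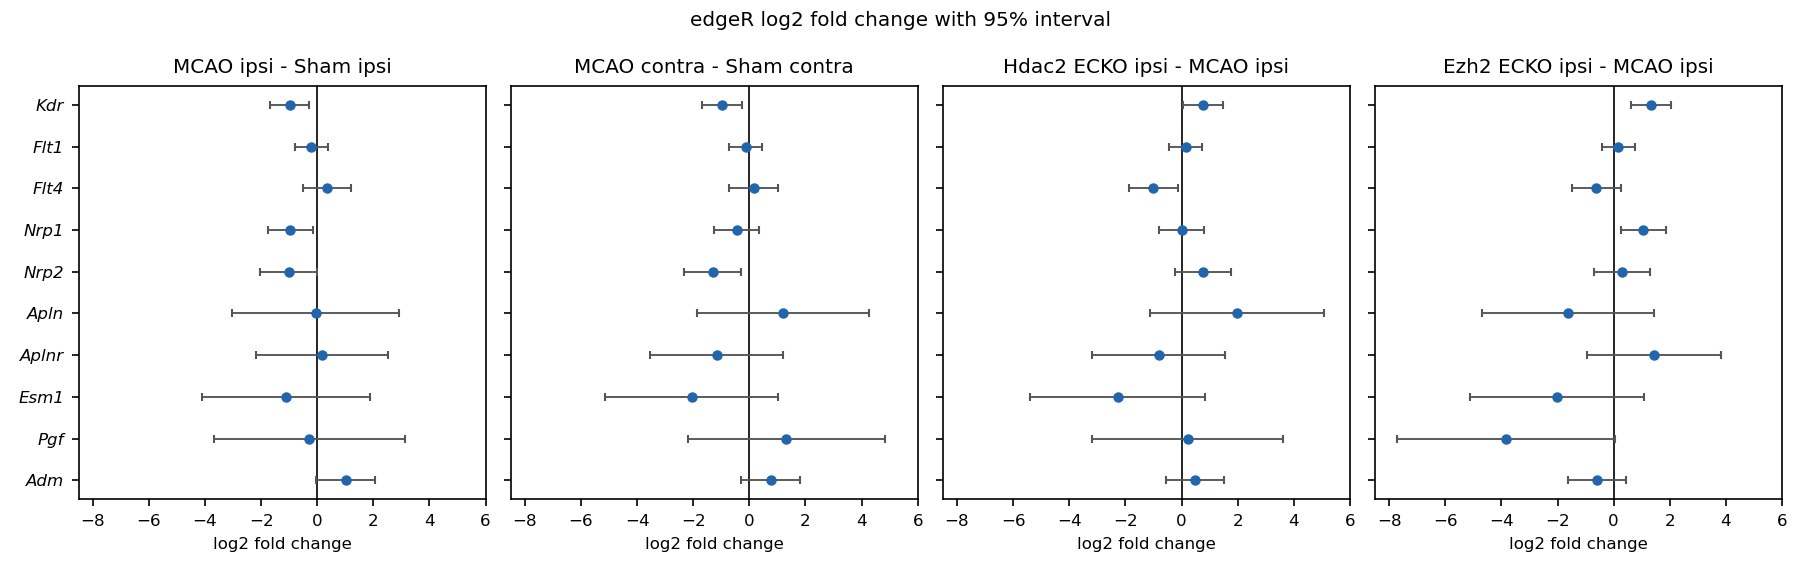
Log2 fold change (horizontal axis) of each gene (vertical axis) in 4 comparisons, with points for edgeR's estimate and bars for its 95% interval. The intervals of Kdr lie to the left of 0 in both occlusion comparisons and to the right of 0 in both ECKO comparisons, and those of Apln, Aplnr, Esm1 and Pgf span several units.

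Occlusion went with lower Kdr and neuropilin levels, a nearly level Flt1 and higher Adm, at sizes edgeR did not call. Over 17094 genes, log2 changes correlated with gene length (Spearman) by −0.284 ipsilaterally and −0.069 contralaterally. Kdr, Nrp1 and Nrp2 lay at percentiles 87.9, 90.4 and 94.4 of length, Flt1 and Flt4 at 96.4 and 84.4, and Adm at 9.11. The alternative settings included removal of this trend. Over them the ipsilateral change was −1.39 to −0.71 for Kdr and −1.33 to −0.67 for Nrp1. For Nrp2 and Adm it was −1.24 to −0.65 and 0.68 to 1.22. The part of length was not tested further. Kdr was at 290.0, 414 and 461 CPM in the sham ipsilateral libraries and at 140.3, 155 and 293 CPM in MCAO ipsilateral. Replicate 3 of MCAO lay just above replicate 1 of sham, and the other 2 were well below all sham libraries. The log2 change was −0.98 ± 0.34 (SE, 95% interval −1.69 to −0.28, adjusted p = 0.587 by edgeR and 0.0103 by limma voom, which called it). On the contralateral side Kdr was at 346, 594 and 297 CPM in sham and at 179, 196 and 258 CPM in MCAO, with no overlap. The log2 change there was −0.97 ± 0.34 (adjusted p = 0.92). The difference between the sides in this change was −0.02 (95% interval −1.01 to 0.98), and with both sides in 1 test the log2 change was −0.98 ± 0.24 (unadjusted p = 5.7e-04, adjusted p = 0.115 by edgeR). DESeq2 called that difference (adjusted p = 0.0178), as did edgeR without MCAO ipsilateral replicate 3 (0.0271) and without both libraries of high background (0.0452). This test counts both sides as separate libraries, and its p-values are too small if the sides share mice. When both sides carrying one replicate number were added together, the log2 change of Kdr was −0.95 (adjusted p = 0.281 by edgeR).

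Flt1, the decoy-like receptor, was at 2428, 2156 and 2508 CPM in sham ipsilateral and at 2119, 1964 and 2058 CPM in MCAO ipsilateral. The groups did not overlap, yet the log2 change was only −0.21 (95% interval −0.79 to 0.38), and it was 0.24 once the trend of each library with gene length was removed. Flt4 was at 28.3, 22.5 and 32.9 CPM in sham and at 38.2, 34.7 and 33.9 CPM in MCAO ipsilateral, again without overlap and with a log2 change of 0.35 ± 0.42 (SE). On the contralateral side Flt1 ran from 1749.8 to 2539 CPM in sham and from 1649 to 2281 CPM in MCAO, and Flt4 from 25.4 to 32.3 CPM and from 22.7 to 38.9 CPM. Both receptors overlapped there.

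Nrp1, the neuropilin best known as partner of Kdr, was at 154, 132 and 169 CPM in sham ipsilateral and at 65.5, 54.7 and 113 CPM in MCAO ipsilateral. All 3 MCAO libraries were below all 3 sham libraries, with a log2 change of −0.96 ± 0.39 (SE, adjusted p = 0.645 by edgeR and 0.015 by limma voom, which called it). Nrp2, whose product also binds VEGF-C, was at 39.6, 23.4 and 25.7 CPM in sham and at 11.8, 13.2 and 18.7 CPM in MCAO ipsilateral, and at 36.2, 24.0 and 18.5 CPM against 5.40, 11.6 and 14.9 CPM on the contralateral side. The groups were apart on both sides, by a log2 change of −1.02 ± 0.48 and −1.30 ± 0.49 (SE). Over both sides the log2 change was −1.16 ± 0.34 for Nrp2 (adjusted p = 0.204) and −0.71 ± 0.27 for Nrp1 (adjusted p = 0.38 by edgeR). Contralateral Nrp1 overlapped, with 114, 115 and 80.6 CPM in sham and 57.8, 61.4 and 106 CPM in MCAO.

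Adm encodes adrenomedullin, a vasodilator peptide made under hypoxia that stabilises the endothelial barrier. It was at 28.4, 13.3 and 26.8 CPM in sham ipsilateral and at 46.0, 43.3 and 48.6 CPM in MCAO ipsilateral. The MCAO libraries were close together and above all sham libraries, with a log2 change of 1.01 ± 0.50 (SE, 95% interval −0.04 to 2.06, adjusted p = 0.707 by edgeR). Contralateral levels were 31.5, 15.7 and 37.2 CPM in sham and 23.3, 55.1 and 64.0 CPM in MCAO and overlapped through MCAO replicate 1, the library of high background and low depth. Over both sides the log2 change was 0.88 ± 0.36 (adjusted p = 0.425), and without both libraries of high background it was 1.07 (adjusted p = 0.0384 by edgeR).

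Counted together, 3 of the 10 genes had an unadjusted p-value under 0.05 in MCAO against sham ipsilateral, all lower (Kdr, Nrp1 and Nrp2), where 7.08% of all genes did. In 5 of 10 the groups did not overlap, against 27.7% of all genes. Contralateral, the counts were 2 (Kdr and Nrp2, both lower, against 4.41%) and 3 without overlap (against 9.65%). Over both sides, 4 genes passed at the unadjusted p-value, Kdr, Nrp1 and Nrp2 lower and Adm higher, against 9.09%, and 0 of 10 were free of overlap, against 1.42%. The median log2 change of the 10 genes was −0.24 on the ipsilateral side, beside −0.09 for all genes. The 8 pericyte markers were also lower after occlusion, summing to between 89.2 and 116 CPM in sham and between 25.2 and 75.1 CPM in MCAO ipsilateral, and to between 66.7 and 155 CPM and between 12.5 and 32.6 CPM contralaterally, without overlap on either side. By edgeR 0 of the 8 were called over both sides, against 0.152% of all genes, and 3 were lower at an unadjusted p-value under 0.05, against 9.09%. A log2 change above 0 was seen in 0 of 8, against 54.2% of all genes. The part of the pericyte markers in the levels of the 10 genes was not tested. Between the sides, 0 of 10 genes had an unadjusted p-value under 0.05 in MCAO (3.08% of all genes), in sham (1.85%) or in the interaction of side and occlusion (3.38%). Groups without overlap numbered 0 between the MCAO sides (5.37% of all genes) and 4 between the sham sides (Nrp1, Apln and Pgf higher ipsilaterally, Aplnr lower, against 15.4%).

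The libraries labelled Hdac2 ECKO had Kdr at 382, 306 and 311 CPM, all above the highest MCAO ipsilateral library and within the range of sham. The log2 change against MCAO ipsilateral was 0.76 ± 0.34 (SE, 95% interval 0.06 to 1.47, adjusted p = 0.483 by edgeR). Flt4 went the other way, at 26.4, 19.6 and 7.11 CPM, below all MCAO ipsilateral libraries, with a log2 change of −1.01 ± 0.42 (adjusted p = 0.462). Replicate 3 was the lowest, and without it the change was −0.63. Flt1 was at 2693, 1850.1 and 2262 CPM and overlapped MCAO, with a log2 change of 0.15 ± 0.28 (SE), which was −0.04 without replicate 1 and −0.11 with the length trend removed. Nrp1, at 57.1, 57.2 and 119.6 CPM, stayed at the MCAO level, while Nrp2, at 38.0, 22.1 and 14.3 CPM, spanned both MCAO and sham. Adm was at 49.7, 52.7 and 91.1 CPM, above all MCAO ipsilateral libraries, by a log2 change of 0.49 ± 0.50 (SE).

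In this comparison 2 of the 10 genes had an unadjusted p-value under 0.05 (Kdr higher and Flt4 lower, against 9.85% of all genes), and 3 had groups without overlap (Kdr, Flt4 and Adm, against 19.9%). The median log2 change of the 10 was 0.18, beside 0.11 for all genes. The comparison with sham ipsilateral uses the same Hdac2 ECKO libraries. Nrp1 was lower there by a log2 change of −0.96 ± 0.39 and Adm higher by 1.5 ± 0.51 (SE, adjusted p = 0.542 and 0.442 by edgeR), both without overlap. With Esm1 (−3.38 ± 1.57) these made 3 of 10 genes with an unadjusted p-value under 0.05, against 7.14% of all genes, and 2 of 10 without overlap, against 15.3%. Limma voom called Nrp1 in this comparison (adjusted p = 0.0405).

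The libraries labelled Ezh2 ECKO had the highest group mean of Kdr, 493 ± 92.8 CPM (SD, n = 3), from 579.9, 395 and 504 CPM. All 3 were above all MCAO ipsilateral libraries. The log2 change against MCAO ipsilateral was 1.33 ± 0.34 (SE, 95% interval 0.61 to 2.04), with an unadjusted p of 8.8e-04 and an adjusted p of 0.0527 by edgeR, just outside the threshold. The call depended on the setting. It was made by DESeq2 (adjusted p = 0.0021), with RLE (0.0288) or upper-quartile factors (0.0362), with a minimum count of 50 (0.0272), with halved counts (0.049), by limma voom (0.0346), and without MCAO ipsilateral replicate 3 (0.0235), MCAO contralateral replicate 1 (0.0202), sham contralateral replicate 2 (0.0411) or both libraries of high background (0.0243). Among other settings, it was not made without MCAO ipsilateral replicate 1 (0.19) or 2 (0.282), without any 1 of the Ezh2 ECKO libraries (0.0762 to 0.138), with background as a covariate (0.106), or with the trend of GC content (0.0588) or of gene length (0.122) removed. The direction held in each of these, with log2 changes from 1.06 to 1.74. Set against the median of all genes, Kdr was 1.16 higher with TMM and 1.14 higher with RLE factors. Without the red cell genes, which were nearly missing from the Ezh2 ECKO libraries, the log2 change was 1.36 (adjusted p = 0.0539).

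Nrp1 was also higher in the Ezh2 ECKO libraries, at 149, 227 and 107 CPM against 65.5, 54.7 and 113 CPM in MCAO ipsilateral. The groups overlapped by 1 library, and the log2 change was 1.05 ± 0.39 (SE, adjusted p = 0.146 by edgeR and 0.0371 by DESeq2). The highest of these values was in Ezh2 ECKO replicate 2, the library with the most background, and without that library the log2 change was 0.72 (adjusted p = 0.394). Nrp2 was at 15.4, 23.0 and 15.8 CPM and overlapped MCAO. Flt1, at 2844, 1909 and 2164 CPM, had a log2 change of 0.17 ± 0.28 (SE), which was −0.01 without replicate 1 and −0.32 with the length trend removed. Flt4, at 21, 22.0 and 26.4 CPM, lay below all MCAO ipsilateral libraries, with a log2 change of −0.62 ± 0.42 (SE).

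Adm was at 34.4, 10.2 and 46.4 CPM in Ezh2 ECKO, the lowest value again in the library with the most background, and overlapped MCAO ipsilateral. Its log2 change was −0.60 ± 0.50 (SE), and −0.19 without that library. The unadjusted p-value was under 0.05 for 2 of 10 genes, Kdr and Nrp1, both higher, against 19.2% of all genes. Groups without overlap numbered 3 of 10 (Kdr and Aplnr higher, Flt4 lower), against 29% of all genes. The median log2 change of the 10 was −0.21, beside 0.17 for all genes. Against sham ipsilateral, 1 of 10 genes had an unadjusted p-value under 0.05 (Pgf, lower, against 6.52%) and 3 had no overlap (Nrp2 and Pgf lower, Aplnr higher, against 13.7%).

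The labels were also compared directly. Nrp1 was lower in Hdac2 ECKO than in Ezh2 ECKO by a log2 change of −1.05 ± 0.39, and Adm higher by 1.09 ± 0.51 (SE, adjusted p = 0.304 and 0.426 by edgeR). Without Ezh2 ECKO replicate 2 these were −0.71 and 0.68. Apln and Pgf made up the 4 of 10 genes with an unadjusted p-value under 0.05 (against 11.2% of all genes), with log2 changes of 3.61 ± 1.59 and 4.05 ± 1.89 (SE). Both rested on Hdac2 ECKO replicate 3, without which they were 1.53 and 0.0038, and limma voom gave −1.49 for Apln. Groups without overlap numbered 3 of 10 (Kdr, Aplnr and Adm), against 12.1%. All 3 Ezh2 ECKO libraries had more Kdr than all 3 Hdac2 ECKO libraries, with a log2 change of −0.56 (95% interval −1.27 to 0.14) for Hdac2 ECKO against Ezh2 ECKO.

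The 4 genes of lowest level scattered widely within groups, and edgeR called them in no comparison. Apln, the apelin peptide that tip cells secrete, ran from 1.28 to 9.96 CPM in sham ipsilateral, from 0.0672 to 1.20 CPM in sham contralateral, from 1.81 to 8.70 CPM in MCAO ipsilateral and from 0.439 to 3.18 CPM in MCAO contralateral. In Hdac2 ECKO it was at 8.06, 0 and 43.0 CPM, where a count of 0 allows up to 0.0701 CPM of the unscaled total, and in Ezh2 ECKO it ran from 0.114 to 3.47 CPM. The apelin receptor Aplnr lay between 0.0588 and 9.28 CPM over all libraries. The Ezh2 ECKO libraries held 3.99, 3.75 and 9.28 CPM, above all MCAO ipsilateral libraries (0.775, 3.44 and 2.10 CPM), and in Hdac2 ECKO at 3.37, 0.181 and 0.0588 CPM. Esm1 (endocan, a secreted proteoglycan that marks tip cells) ran from 1.43 to 16.0 CPM in sham ipsilateral and from 5.04 to 23.4 CPM in sham contralateral. Its MCAO levels were 10.5, 0 and 2.44 CPM ipsilaterally, where a count of 0 allows 0.0585 CPM, and 0.533, 9.06 and 0.0428 CPM contralaterally. The libraries labelled Hdac2 ECKO held 0.529, 0.421 and 1.70 CPM and those labelled Ezh2 ECKO 0.755, 0.341 and 2.07 CPM. All 6 were low, and they overlapped sham ipsilateral and both MCAO groups. Pgf, placental growth factor, a ligand of Flt1, was under 10 counts in 8 of 18 libraries and reached 4.47 CPM at most. These limits for a count of 0 hold for counting error alone, because amplified reads were not tagged by molecule. They treat every count as independent, and are too low if both mates of a fragment were counted.

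The ratio of Flt1 to Kdr, both per kilobase, sets the receptor that holds VEGF back against the one that signals. It was 5.6, 3.48 and 3.64 in the sham ipsilateral libraries, 10.1, 8.45 and 4.69 in MCAO ipsilateral, 4.71, 4.04 and 4.86 in Hdac2 ECKO and 3.28, 3.23 and 2.87 in Ezh2 ECKO. The ratio overlapped between sham and MCAO ipsilateral through MCAO replicate 3 (two-sided exact permutation p = 0.2). On the contralateral side it was 4.19, 2.86 and 3.94 in sham and 6.15, 7.78 and 5.10 in MCAO, with no overlap (exact permutation p = 0.1). All 3 Ezh2 ECKO values were below all MCAO ipsilateral values and below all Hdac2 ECKO values (p = 0.1 in each exact permutation test). With 3 against 3 libraries 0.1 is the smallest p that is possible, and over the 18 ratio comparisons made these become 0.257. The ratio of Nrp1 to Kdr averaged 0.374 in sham ipsilateral and 0.371 in MCAO ipsilateral (exact permutation p = 1), so the lower levels of both genes left their ratio with overlapping values there.

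**Figure D3:**
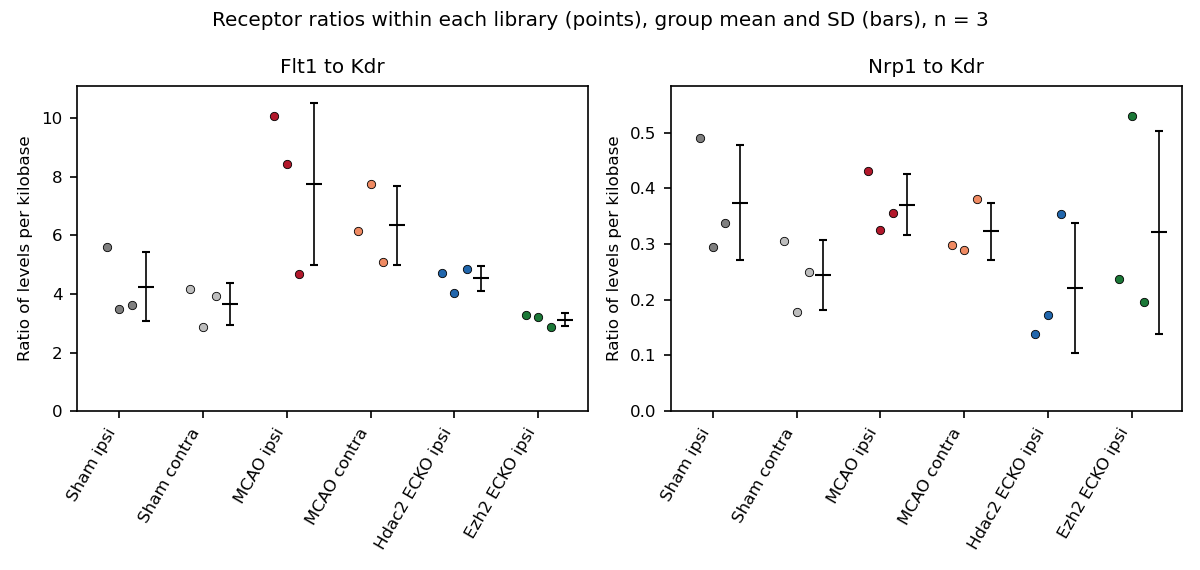
Ratio of levels per kilobase (vertical axis, linear, from 0) of Flt1 to Kdr (left) and of Nrp1 to Kdr (right) in each library (points) of the 6 groups (horizontal axis), with group mean and SD as bars. Flt1 to Kdr is highest in MCAO ipsilateral replicates 1 and 2, at 10.1 and 8.45, and lowest in Ezh2 ECKO, at 2.87 to 3.28 apart from a sham contralateral value of 2.86.

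The receptor of adrenomedullin is built from Calcrl and Ramp2. Both were called by edgeR in Ezh2 ECKO against MCAO ipsilateral, where 1.46% of all genes were. Calcrl, the receptor protein, was at 143, 112 and 170.3 CPM in MCAO ipsilateral, at 423, 326 and 269 CPM in Hdac2 ECKO and at 799, 324 and 546 CPM in Ezh2 ECKO. Ramp2, the small membrane protein that makes Calcrl an adrenomedullin receptor, was at 1579, 2346 and 1123 CPM, at 667, 657 and 361 CPM and at 328, 195 and 299.5 CPM in the same groups. In both ECKO groups every Calcrl value was above and every Ramp2 value below all MCAO ipsilateral values. By edgeR, Calcrl rose in Ezh2 ECKO, with a log2 change of 1.97 ± 0.43 (SE, adjusted p = 0.0324), and Ramp2 fell, with a log2 change of −2.62 ± 0.54 (adjusted p = 0.0291). In Hdac2 ECKO the log2 changes were 1.26 ± 0.42 and −1.58 ± 0.52 (adjusted p = 0.405 and 0.394). In sham ipsilateral Calcrl was at 159.9, 303 and 217 CPM and Ramp2 at 972, 417 and 638 CPM, and the log2 change of Ramp2 in MCAO ipsilateral was 1.32 ± 0.52 (adjusted p = 0.645).

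The ratio of Calcrl to Ramp2 per kilobase averaged 0.277 for sham and 0.0654 for MCAO on the ipsilateral side, 0.423 for Hdac2 ECKO and 1.34 for Ezh2 ECKO, and MCAO ipsilateral overlapped none of the other 3 (exact permutation p = 0.1 each, 0.257 over the 18 ratio comparisons). Both Ezh2 ECKO calls were lost with background as a covariate (adjusted p = 0.0975 for Calcrl and 0.0976 for Ramp2) and without MCAO ipsilateral replicate 1 (0.105 and 0.0796), MCAO ipsilateral replicate 2 (0.191 and 0.171) or Ezh2 ECKO replicate 3 (0.0984 and 0.101). That of Calcrl was also lost without Ezh2 ECKO replicate 1 (0.0662) and with the GC trend removed (log2 change 1.56, 0.0977), and that of Ramp2 without Ezh2 ECKO replicate 2 (0.0815). Across all genes the log2 changes of this comparison correlated with GC content (Spearman −0.471 over 16965 genes), and Calcrl lay at the 5.15th and Ramp2 at the 87.8th percentile of GC.

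**Figure D4:**
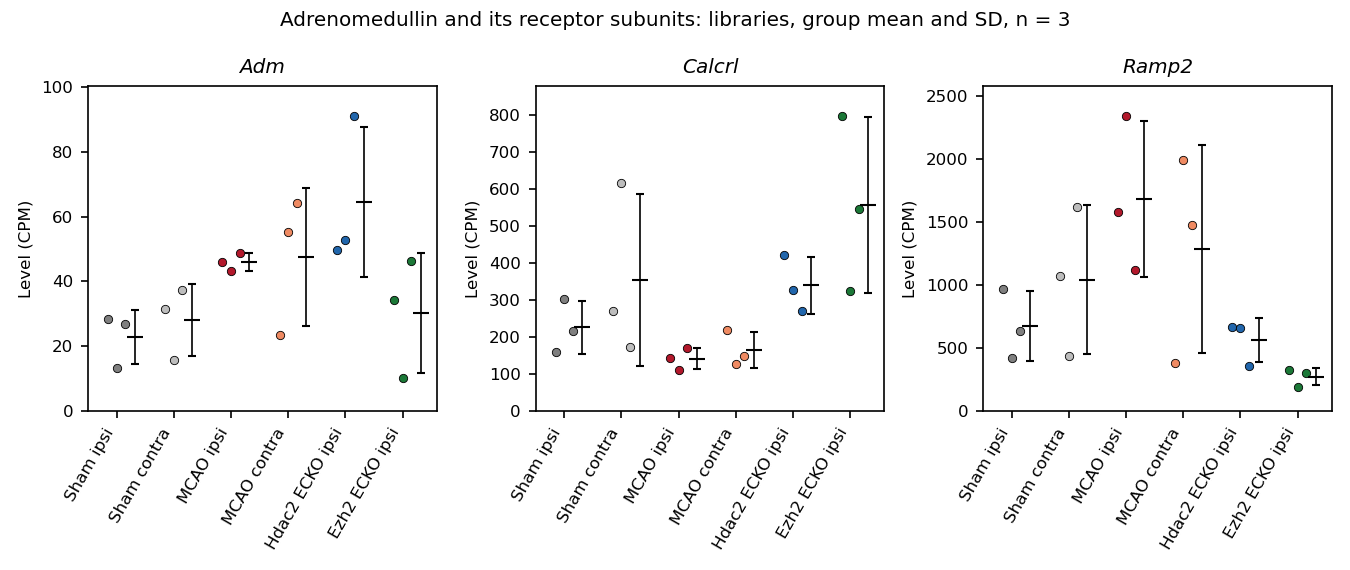
Level in CPM (vertical axis, linear, from 0) of Adm, Calcrl and Ramp2 in each library (points) of the 6 groups (horizontal axis), with group mean and SD as bars. Calcrl is higher and Ramp2 lower in both ECKO groups than in MCAO ipsilateral, and Adm is above sham ipsilateral in MCAO ipsilateral and Hdac2 ECKO.

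The ligands were low in these cells, apart from Vegfc. Of the 4 listed, edgeR called 0 in MCAO against sham ipsilateral and in either ECKO group against MCAO ipsilateral, where 1 higher and 1 lower, 2 higher, and 1 higher and 1 lower had an unadjusted p-value under 0.05, against 7.08%, 9.85% and 19.2% of all genes. Vegfc, a ligand of Flt4 and Kdr, was at 70.0, 22.5 and 48.3 CPM in sham ipsilateral, at 20.7, 21.1 and 23.3 CPM in MCAO ipsilateral, at 56.2, 59.7 and 68.7 CPM in Hdac2 ECKO and at 40.4, 31.1 and 45.8 CPM in Ezh2 ECKO. All 6 ECKO libraries were above all MCAO ipsilateral libraries. The log2 changes were −1.11 ± 0.36 for MCAO against sham, 1.5 ± 0.37 for Hdac2 ECKO and 0.85 ± 0.36 for Ezh2 ECKO against MCAO (SE, adjusted p = 0.559, 0.247 and 0.205), and DESeq2 called both ECKO differences (adjusted p = 0.00384 and 0.0444) and limma voom that between MCAO and sham (0.027). Vegfb, a ligand of Flt1, had the opposite course, at 3.63, 0.5 and 4.17 CPM in sham, 7.63, 14.3 and 5.98 CPM in MCAO ipsilateral and 1.24, 0.455 and 1.57 CPM in Ezh2 ECKO. Its log2 change was 1.75 ± 0.78 in MCAO and −3.09 ± 0.82 in Ezh2 ECKO (SE, adjusted p = 0.671 and 0.0567 by edgeR). DESeq2 called the latter (adjusted p = 4.9e-04). Vegfb lay at percentile 99.1 of GC content, with which log2 changes of all genes correlated by 0.353 and −0.471 (Spearman) in these 2 comparisons. Vegfd, the other Flt4 ligand, was 1.35 ± 0.60 higher on the log2 scale in Hdac2 ECKO (adjusted p = 0.481), and ran from 4.77 to 8.25 CPM in MCAO ipsilateral and from 12.2 to 18.7 CPM in sham. Vegfa, which mostly comes from other cells, ran from 0.220 to 17.2 CPM over all libraries. Its log2 change was 1.55 ± 1.03 (SE) in MCAO against sham ipsilateral, without overlap (adjusted p = 0.761 by edgeR). Against MCAO ipsilateral it was 0.41 ± 1.00 in Hdac2 ECKO and −1.72 ± 1.03 in Ezh2 ECKO, both with overlap (adjusted p = 0.912 and 0.354 by edgeR).

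For signalling below the receptors, the mRNA levels of 35 genes were compared, which do not measure the activity of their proteins. In MCAO against sham ipsilateral edgeR called 0, DESeq2 1 and limma voom 6, against 0%, 0.404% and 7.45% of all genes. At an unadjusted p-value under 0.05, 4 were higher and 1 lower, against 7.08% of all genes, and their median log2 change was −0.21, beside −0.09 for all genes. Hspb1, a heat shock protein that the p38 branch phosphorylates, was at 476, 158 and 349 CPM in sham and at 1986, 2959.6 and 588 CPM in MCAO ipsilateral, a log2 change of 2.49 ± 0.69 (SE, adjusted p = 0.509), and Cdc42, a small GTPase of filopodia, had 0.88 ± 0.34 (adjusted p = 0.64). In Hdac2 ECKO against MCAO edgeR called 0, DESeq2 1 and limma voom 0, against 0.0117%, 1.43% and 0.187% of all genes. By an unadjusted p-value below 0.05, 5 were higher and 2 lower, against 9.85% of all genes. Among them were Sos1, an activator of Ras, at 0.98 ± 0.28 and Hspb1 at −1.99 ± 0.68 (adjusted p = 0.347 and 0.405). In Ezh2 ECKO against MCAO edgeR called 2 of 35, both lower, against 1.46% of all genes. Hspb1 fell, with a log2 change of −3.93 ± 0.74, and so did Akt1, a survival kinase, with −1.97 ± 0.47 (SE, adjusted p = 0.0248 and 0.0434 by edgeR). Akt1 was at 34.2, 51.4 and 42.4 CPM in MCAO ipsilateral and at 19.1, 5.15 and 8.38 CPM in Ezh2 ECKO, without overlap. The median of the 35 was 0.13 there, beside 0.17. DESeq2 called 8 and limma voom 3 of the 35 in this comparison, against 9.61% and 2.21% of all genes, and 5 were higher and 6 lower at an unadjusted p-value under 0.05, against 19.2%. Both edgeR calls were lost with background as a covariate (0.0854 and 0.112) and without MCAO ipsilateral replicates 1 or 2 or Ezh2 ECKO replicates 2 or 3 (adjusted p from 0.0633 to 0.212). That of Akt1 was lost in 18 of 32 settings in all. Hspb1 lay at percentile 98.5 and Akt1 at percentile 96.1 of GC content. Over 16965 genes the log2 changes correlated with GC content (Spearman) by 0.353 in MCAO against sham ipsilateral. For Hdac2 ECKO and Ezh2 ECKO against MCAO ipsilateral the values were −0.349 and −0.471.

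Partners of the neuropilins, 14 plexins, semaphorins and adaptors, gave 0 calls by edgeR and by limma voom in the same 3 comparisons. DESeq2 called 1 (Gipc1 in Ezh2 ECKO, where it called 9.61% of all genes). Those with an unadjusted p-value below 0.05 numbered 0 in MCAO, 2 in Hdac2 ECKO and 1 in Ezh2 ECKO, all of these lower, against 7.08%, 9.85% and 19.2% of all genes. Those with the smallest p-values were Plxna1 (log2 change −0.95 ± 0.61, SE) and Sema3c (−0.42 ± 0.38) in MCAO, the receptor Plxna2 (−0.86 ± 0.39) and the adaptor Gipc1 (−2.47 ± 1.16) in Hdac2 ECKO, and Gipc1 (−2.99 ± 1.18) and Sema3c (0.63 ± 0.38) in Ezh2 ECKO. The list's median log2 change was −0.21, −0.37 and −0.39, beside −0.09, 0.11 and 0.17 for all genes. Gipc1 lay at percentile 97.5 of GC content, with which log2 changes of all genes correlated by −0.349 and −0.471 (Spearman) in the ECKO comparisons. Of 9 partners of apelin and adrenomedullin, 7 were tested. In Ezh2 ECKO against MCAO ipsilateral edgeR called 2 (Calcrl and Ramp2), against 1.46% of all genes. DESeq2 and limma voom each called 3 there (also Gnai2, lower), against 9.61% and 2.21%. In MCAO against sham edgeR and DESeq2 called 0 and limma voom 1 (Ramp2), against 0%, 0.404% and 7.45% of all genes. In Hdac2 ECKO against MCAO all 3 tools called 0, against 0.0117%, 1.43% and 0.187%. At an unadjusted p-value under 0.05, 1 was higher in MCAO, 1 higher and 2 lower in Hdac2 ECKO, and 1 higher and 2 lower in Ezh2 ECKO, against 7.08%, 9.85% and 19.2% of all genes. The G protein subunit Gnai2, also in that list, had a log2 change of 0.86 ± 0.42 (SE) in MCAO ipsilateral.

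Other tip cell genes, 30 in number, gave 0 calls by edgeR in the 3 comparisons, with 11, 14 and 16 of 30 above 0 in log2 change, against 45.9%, 54.8% and 55.4% of all genes. At an unadjusted p-value under 0.05, 3 were higher and 2 lower in MCAO, 1 higher and 4 lower in Hdac2 ECKO, and 4 higher and 4 lower in Ezh2 ECKO, against 7.08%, 9.85% and 19.2% of all genes. DESeq2 called 0, 1 and 2 of them (0.404%, 1.43% and 9.61% of all genes) and limma voom 5, 0 and 1 (7.45%, 0.187% and 2.21%). In MCAO ipsilateral Angpt2, which loosens vessels for sprouting, had a log2 change of 1.58 ± 0.51, and Plaur, the urokinase receptor, 2.75 ± 0.91 (SE, adjusted p = 0.559 and 0.562 by edgeR), both without overlap with sham. In Hdac2 ECKO Efnb2, an arterial ephrin that promotes uptake of VEGF receptors, was higher than in MCAO by 1.31 ± 0.40, and Plaur had −2.90 ± 0.92 (adjusted p = 0.394 each). In Ezh2 ECKO the transcription factor Ets1 was higher by 1.25 ± 0.35 and Efnb2 by 1.1 ± 0.40 (adjusted p = 0.0651 and 0.142).

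Genes that hypoxia induces, 22 listed and 21 tested, had a log2 change above 0 in 18 of 21 cases in MCAO ipsilateral, where 45.9% of all genes did, with a median log2 change of 0.60 beside −0.09 for all genes. By edgeR and DESeq2 0 were called and by limma voom 6 (7.45% of all genes), and 6 were higher at an unadjusted p-value under 0.05 (7.08% of all genes passed in either direction), among them Bnip3, a mitophagy receptor (1.40 ± 0.38), and P4ha1, a collagen hydroxylase (2.02 ± 0.58, SE). In Hdac2 ECKO against MCAO 5 of 21 were above 0, against 54.8% of all genes. EdgeR called 0, DESeq2 2 and limma voom 1 (1.43% and 0.187% of all genes for the last 2), and 2 were higher and 3 lower by an unadjusted p-value below 0.05 (9.85% of all genes), with Ankrd37 at 1.30 ± 0.30 and the glucose transporter Slc2a1 at −1.19 ± 0.33 (adjusted p = 0.225 and 0.304). In Ezh2 ECKO 7 of 21 were above 0, against 55.4% of all genes, DESeq2 called 4 (Kdm3a, P4ha1, P4ha2 and Slc2a1, against 9.61% of all genes) and limma voom 0, and 1 was higher and 5 lower at an unadjusted p-value under 0.05 (19.2% of all genes). P4ha1 was the 1 gene called by edgeR, against 1.46% of all genes. Its log2 change was −2.88 ± 0.60 (SE, adjusted p = 0.0291), from 86.8, 114 and 35.1 CPM in MCAO ipsilateral to 18.4, 5.97 and 7.74 CPM. This call was lost by limma voom (0.0569), with background as a covariate (0.0967) and without MCAO ipsilateral replicates 1 or 2 or Ezh2 ECKO replicates 2 or 3 (from 0.0863 to 0.171). The list's medians were −0.17 and −0.40 in these ECKO comparisons, beside 0.11 and 0.17. Contralaterally, 18 of 21 were also above 0 in MCAO against sham (59.3% of all genes), with a median of 0.45 beside 0.17. There 5 were higher at an unadjusted p-value under 0.05, against 4.41%. Between the MCAO sides and in the interaction 0 of 21 were, against 3.08% and 3.38%. Compared with sham ipsilateral, 15 of 21 were above 0 in Hdac2 ECKO (49.7% of all genes) and 14 in Ezh2 ECKO (56.1%). The ECKO comparisons against MCAO share the MCAO ipsilateral libraries with the occlusion comparison. A value high or low in those 3 libraries therefore enters both with opposite sign.

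The 12 endothelial markers listed summed to between 13211 and 14021 CPM in sham ipsilateral, to between 17731 and 26354 CPM in MCAO ipsilateral, to between 13432 and 16871 CPM in Hdac2 ECKO and to between 10216 and 11909 CPM in Ezh2 ECKO. Their sum was highest where Kdr was lowest, mostly through Ly6c1, which averaged 14509 CPM in MCAO ipsilateral and 3549 CPM in Ezh2 ECKO. Tek, the receptor of angiopoietins and itself 1 of these markers, had means of 624 ± 98.6 CPM in sham ipsilateral, 365 ± 75.3 CPM in MCAO ipsilateral, 641 ± 129.9 CPM for the label Hdac2 ECKO and 699.7 ± 5.21 CPM for the label Ezh2 ECKO (SD, n = 3). The 12 markers did not share this course. In MCAO against sham ipsilateral 7 had a log2 change above 0, against 45.9% of all genes. For Hdac2 ECKO and Ezh2 ECKO against MCAO ipsilateral 5 and 4 did, against 54.8% and 55.4%. At an unadjusted p-value under 0.05, 3 were higher and 1 lower in MCAO, against 7.08% of all genes. In Hdac2 ECKO 3 were higher and 3 lower (9.85%), and in Ezh2 ECKO 2 higher and 6 lower (19.2%). Pericyte markers summed to between 13.6 and 63.4 CPM in Hdac2 ECKO and between 19.6 and 159 CPM in Ezh2 ECKO. The 12 microglia and macrophage markers summed to between 38.3 and 95.2 CPM, highest in MCAO ipsilateral (87.5 to 95.2). The part of these markers in the levels of the 10 genes was not tested.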

How the data were processed

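Paired-end libraries of sorted cells were made with the SMART-Seq v4 PLUS kit for a NovaSeq X Plus, per the labels' protocols. The submitters' processing notes name FastQC, cutadapt, STAR, featureCounts, DESeq2 and build mm10, and roles, versions, annotation and strand setting are not given in the sources used here. The authors deposited whole-number counts per gene in a table they call normalized. Its totals differ between libraries, and 77.3 to 89.4% of its counts from 1 to 20 are even, as for unscaled counts of both mates of a pair. No pair of libraries was identical. Here, genes with at least 10 counts in at least 3 libraries (17094 of 21638) were tested in a single edgeR model of 18 libraries with a mean for each of the 6 groups (edgeR 4.0.16 quasi-likelihood test, TMM factors, R 4.3.3), with Benjamini-Hochberg adjustment within a comparison and calls at an adjusted p under 0.05. A standard error is the log2 change divided by the square root of F. The code was tested on simulated data. DESeq2 1.42.0 and limma 3.58.1 (voom with sample weights) were alternatives, as were other scalings, filters and left-out libraries. The 10 genes and the pathway and marker lists were chosen with earlier results of these data known. Each pathway list is shown by its counts and by up to 4 called genes, or otherwise the 2 with the smallest unadjusted p, with VEGF ligands, Calcrl and Ramp2 always shown. Akt1 and other genes named with levels follow from these lists, while Tek and Ly6c1 were named from the endothelial markers without such a rule.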

Additional observations from a re-analysis of the deposited data

How the results depend on the processing

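The 64 log2 changes named for the 10 genes and their lists gave 2052 values under alternative settings, of which 1942 kept their direction and side of the threshold, 60 gained a call, 44 lost one and 6 changed sign. The changes of sign were Flt1 with the length trend removed (0.24 in MCAO against sham ipsilateral, and −0.11 for Hdac2 ECKO and −0.32 for Ezh2 ECKO against MCAO ipsilateral), Flt1 without Hdac2 ECKO replicate 1 (−0.0403) or Ezh2 ECKO replicate 1 (−0.0076), in ranges over single left-out libraries of −0.0403 to 0.22 and −0.0076 to 0.29, and Apln in Hdac2 ECKO against Ezh2 ECKO by limma voom (−1.49), and the cause was not tested. Over all 110 pairs of gene and comparison, 49 changed sign in at least 1 setting and 61 in none. Of the 10 genes, edgeR called 0 in Ezh2 ECKO against MCAO ipsilateral, and 1 with RLE factors, upper-quartile factors, a minimum count of 50, halved counts or both libraries of high background left out, DESeq2 called 2 and limma voom 1, and leaving out 1 library gave 0 to 1. Over both sides of MCAO against sham the count was 2 by DESeq2, 4 by limma voom, 1 with background as a covariate, 2 without both libraries of high background and 0 to 1 with 1 library left out. Limma voom called 2 in MCAO against sham ipsilateral and 1 in Hdac2 ECKO against sham ipsilateral. The trends with GC and length, the removal of red cell genes and of both libraries of high background, and the sum of both sides were added after the data had been seen.

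Calls over all genes also depended on the setting. In Ezh2 ECKO against MCAO ipsilateral 250 genes were called, 1642 by DESeq2, 5 without MCAO ipsilateral replicate 1 or 2 and 1280 without MCAO contralateral replicate 1. In other comparisons the ranges were 0 to 2199 over both sides (26 called), 0 to 1273 in MCAO against sham ipsilateral (0), 0 to 26 contralateral (0), 0 to 244 in Hdac2 ECKO against MCAO (2), 1 to 659 in Hdac2 ECKO against Ezh2 ECKO (21), 0 to 266 and 0 to 189 in Hdac2 and Ezh2 ECKO against sham (0 and 7), and 0 to 6 in both side comparisons and the interaction (0).

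Replicate numbers were not taken to pair the libraries, since in no pair of groups did all same-numbered libraries correlate above 0.1. Same-numbered libraries correlated from −0.353 to 0.403 in their deviations from the group means over 27 pairs, 9 of them above 0.1, and 12 matched best with their own number. Between the sides, replicates 1 and 2 correlated by 0.288 and 0.382 in MCAO and by 0.372 and 0.349 in sham, each best with its own number, and replicate 3 by 0.036 and −0.125, not best with its own. Groups of different mice also matched by number. Ezh2 ECKO and sham ipsilateral matched best for replicates 1, 2 and 3 (0.135, 0.194 and 0.075), and replicate 3 of MCAO and sham contralateral correlated by 0.403. Some sides may thus share a mouse, or libraries of one number another source. The labels state neither, and these cannot be told apart here. With the sides summed 8 genes and 0 of the 10 were called over both sides. With the replicate block 12 genes were called in Ezh2 ECKO against MCAO ipsilateral and 0 of the 10 genes in any comparison, with adjusted p of 0.0759 for Kdr there and 0.188 over both sides, and of 0.0558 to 0.0596 for Calcrl, Ramp2, Hspb1, Akt1 and P4ha1. Depth limits Pgf, Apln, Aplnr and Esm1, which had under 10 counts in 8, 3, 3 and 2 libraries.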

Other observations

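The 10 genes did not vary as 1 group over the 18 libraries. On the log2 scale Kdr correlated with Nrp1 (Pearson r = 0.638), Flt1 (0.546) and Nrp2 (0.54), and Nrp1 with Adm by −0.49. These are descriptions over libraries that share groups, depth and background, and the groups themselves differ in these genes. The background measured on olfactory and vomeronasal receptor genes correlated by −0.564 with Adm, by 0.386 with Nrp1 and by 0.199 with Kdr over the same libraries, and its part was not tested.

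Of the 7814 genes that averaged 10 CPM or more, those most like Kdr over the 18 libraries, by Pearson r of log2(CPM + 0.5), were Ctnnb1, which encodes beta-catenin (0.949), the transcription factor Foxc1 (0.944) and Ulk4 (0.939). For Flt1 they were the drug efflux pump Abcb1a (0.881), Ubr2 (0.843) and Kansl3 (0.836), and for Flt4 they were Proser2 (0.887), the transporter Abcc4 (0.864) and Rgs12 (0.851). Nrp1 was most like Fam98a (0.87), the translation factor Eif4g3 (0.867) and Lmntd1 (0.845). For Nrp2 the list held Nav1 (0.843), Trmt1 (0.831) and the netrin receptor Unc5b (0.83), the last of which is itself a tip cell gene. Adm was most like Fth1, the heavy chain of ferritin (0.858), Tmem176b (0.85) and Timm17b (0.85). No gene was among these 3 for more than 1 of the 6 genes.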
